A study of Mus musculus with 4 samples.

Results

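The zinc finger protein genes whose symbols are Zfp followed by exactly 3 digits were examined in the polyA(+) transcriptome of leptotene/zygotene (L/Z) spermatocytes, the male germ cells that have just entered meiosis. All genes of the deposited table with such a symbol were taken except Zfp541, which gave 283 of 23980 genes. The rule used the symbol and no measured value, but it was chosen with earlier results of these data known. Mice of 4 genotypes were compared, with 1 library each. They were heterozygous for Dnmt3L (Het), knocked out for Dnmt3L (KO), wild type for Pld6 (WT) or knocked out for it. All animals were F1 hybrids of C57BL6/J and MSM/Ms, of 3 to 4 weeks after birth, and the cells were collected by fluorescence-activated cell sorting with no further treatment. Pld6 makes the primary piRNAs that guide retrotransposon silencing in the male germ line, and Dnmt3l is the cofactor of de novo DNA methylation. The Dnmt3L Het and the Pld6 WT library served as the controls. Their genotypes and lines differ, so the spread between them is not that of replicates of 1 genotype, and no mutant value has a replicate.

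Most of these genes encode DNA-binding proteins built of C2H2 fingers, short loops held by a zinc ion that each read a few bases. In many of them an N-terminal KRAB domain recruits the corepressor TRIM28 and, through it, the histone methyltransferase SETDB1. Many such KRAB zinc finger proteins are sequence-specific repressors of retrotransposons. Other members have no KRAB domain and act in RNA binding, ribosome assembly, chromosome segregation or gene activation. The question put to the data was how this family was expressed when piRNA production or DNA methylation was lost.

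The KRAB A box was searched in the coding sequences of GENCODE M21 (GRCm38, the coordinates of mm10), in which 279 of the 283 genes had one. A window of 18 residues was scored at 8 conserved positions, and at least 6 of them were required in any isoform. By this rule 153 genes held a KRAB A box and 126 did not, and for Zfp389, Zfp572, Zfp783 and Zfp939 no coding sequence was found. All 8 positions were kept in 120 genes, 7 in 27 and 6 in 6 (Zfp189, Zfp202, Zfp213, Zfp282, Zfp287 and Zfp457). Just outside the rule, 12 genes kept 5 positions, among them Zfp641, Zfp536, Zfp292, Zfp397 and Zfp956. The 54 bases that encode the window are shown 5′ to 3′ for 6 genes because the class they define is compared below, with the codons of the 8 scored positions in capitals. Zfp809, Zfp445 and Zfp568 are known silencers of retroviruses or imprinted loci, and Zfp566, Zfp182 and Zfp945 were higher in a mutant than in both controls.
Zfp809: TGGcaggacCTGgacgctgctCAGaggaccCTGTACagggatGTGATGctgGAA
Zfp445: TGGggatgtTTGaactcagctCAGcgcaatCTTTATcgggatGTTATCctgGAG
Zfp568: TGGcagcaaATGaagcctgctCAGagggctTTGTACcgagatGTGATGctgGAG
Zfp566: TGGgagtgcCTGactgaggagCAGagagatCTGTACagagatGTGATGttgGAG
Zfp182: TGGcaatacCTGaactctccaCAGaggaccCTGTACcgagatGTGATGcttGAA
Zfp945: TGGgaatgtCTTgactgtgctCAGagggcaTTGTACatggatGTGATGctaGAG
These windows lie in a coding exon each, at chr9:22235068-22235121 (plus strand) for Zfp809, chr9:122856724-122856777 (minus strand) for Zfp445, chr7:29997798-29997851 (plus strand) for Zfp568, chr7:30081116-30081169 (minus strand) for Zfp566, chrX:21036671-21036724 (minus strand) for Zfp182 and chr17:22857275-22857328 (minus strand) for Zfp945. Zfp445 kept 7 of the 8 positions and the other 5 windows kept all 8.

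The promoters of the 2 classes differed in their content of CG pairs, the sites of DNA methylation. In the RefSeq promoter of 300 bases (250 before and 50 after the start, GRCm38.p6), found for 232 of the genes, the median number of CG pairs was 15.5, against 7 over the 27025 promoters of the table. It was 11 in the 137 promoters of KRAB genes and 20 in the 93 promoters of genes without the box. Of all promoters 94.2% held at least 1 CG pair and 16.8% held at least 26, whereas 26 pairs or more were found in 2.19% of the promoters of KRAB genes and in 28.0% of those of the genes without the box. Zfp945, a KRAB gene with 7 CG pairs, and Zfp641, with 26, are printed as promoters with fewer and with more CG pairs among the genes that were higher in Dnmt3L KO, with each CG pair in capitals.
Zfp945: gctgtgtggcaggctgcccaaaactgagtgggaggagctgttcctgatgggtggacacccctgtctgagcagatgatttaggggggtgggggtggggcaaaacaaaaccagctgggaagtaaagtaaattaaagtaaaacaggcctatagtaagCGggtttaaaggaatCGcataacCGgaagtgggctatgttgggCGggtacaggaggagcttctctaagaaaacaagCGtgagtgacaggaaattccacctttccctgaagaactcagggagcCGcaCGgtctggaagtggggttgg
Zfp641: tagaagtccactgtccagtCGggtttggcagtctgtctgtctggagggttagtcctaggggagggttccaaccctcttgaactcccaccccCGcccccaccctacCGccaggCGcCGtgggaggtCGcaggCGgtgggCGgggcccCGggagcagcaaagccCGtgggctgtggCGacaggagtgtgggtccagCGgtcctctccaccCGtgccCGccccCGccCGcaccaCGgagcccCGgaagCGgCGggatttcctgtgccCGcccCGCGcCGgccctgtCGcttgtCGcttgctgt
The first lies at chr17:22867085-22867384 and the second at chr15:98296112-98296411, both on the minus strand. DNA methylation was not measured in these libraries.

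The libraries held from 30439943 (Pld6 KO) to 63875934 (Dnmt3L Het) fragments in genes. Both targeted genes had their lowest value where the label named the knockout. Pld6 was at 17.2 FPKM (fragments scaled to gene length and library depth) in Dnmt3L Het, 19.5 in Pld6 WT, 8.55 in Dnmt3L KO and 0.334 in Pld6 KO, and Dnmt3l at 1.27, 0.980, 0 and 0.432 FPKM in the same order. All 10 markers of L/Z spermatocytes were present, at a sum of 840 to 2239 FPKM per library. The libraries also differed in RNA of other cells. The 10 spermatid markers summed to 7069 FPKM in Dnmt3L Het, 159 in Pld6 WT, 30.2 in Dnmt3L KO and 11.4 in Pld6 KO, and the 10 Sertoli cell markers to 5793, 183, 8057 and 474 FPKM, each list with all markers present except 1 spermatid marker at 0 in Pld6 KO. In sorted cells measured in bulk, fewer cells of a type and less RNA per cell cannot be told apart.

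The family was expressed broadly in all 4 libraries. An FPKM of 1 or more was reached by 234 genes (82.7%) in Dnmt3L Het, 226 (79.9%) in Pld6 WT, 249 (88.0%) in Dnmt3L KO and 234 (82.7%) in Pld6 KO, whereas 55.5% to 59.5% of all genes did so. In all 4 libraries 214 genes reached this level, 24 stayed under it, and Zfp648 and Zfp735 had no fragment at all. A count of 0 allows up to 3 fragments at these depths, and such floors cover counting error only. The median level was 3.90 FPKM in Dnmt3L Het, 4.85 in Pld6 WT, 5.54 in Dnmt3L KO and 5.02 in Pld6 KO. Thus most members were modestly expressed, and together they took 0.673% to 0.882% of the fragments of a library.

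The 8 genes with the highest mean level all lacked a KRAB A box. Zfp207, a microtubule-binding protein of the kinetochore and spindle, stood far above the rest at 113 FPKM in Dnmt3L Het, 141 in Pld6 WT, 123 in Dnmt3L KO and 122 in Pld6 KO, so that both mutants lay between the controls. Zfp330, a nucleolar protein, was at 41.9, 51.1, 49.5 and 46.9 FPKM in the same order, again with both mutants between the controls. Zfp451, a SUMO ligase, was at 34.8, 43.1, 34.6 and 39.0 FPKM. Zfp622, which acts in the assembly of the large ribosomal subunit, was at 37.9, 38.0, 30.9 and 39.1 FPKM. Zfp523 (32.1, 39.0, 34.7 and 36.3 FPKM), a relative of the transcription activator Zfp143, varied as little. Zfp664 (23.1, 49.0, 29.5 and 43.8 FPKM) and Zfp687 (26.6, 44.7, 33.6 and 34.6 FPKM), a chromatin-bound factor, varied more, with the lowest value in Dnmt3L Het and the highest in Pld6 WT. Zfp672, the remaining gene of the 8, is described with the genes that were lower in Dnmt3L KO.

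KRAB genes were expressed at a lower level than the others. Their median was 2.57 FPKM in Dnmt3L Het, 2.56 in Pld6 WT, 3.38 in Dnmt3L KO and 3.06 in Pld6 KO, and that of the genes without the box was 7.78, 8.43, 9.71 and 9.13 FPKM. KRAB genes carried a median of 12 C2H2 fingers by pattern and the others 7, and the median coding length was 579 residues in both classes. Across the 232 genes with a promoter, genes with more CG pairs had higher mean levels (Spearman's rho 0.39, across genes, which are not independent). Within the classes rho was 0.33 (137 KRAB genes) and 0.13 (93 others).

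**Figure D1:**
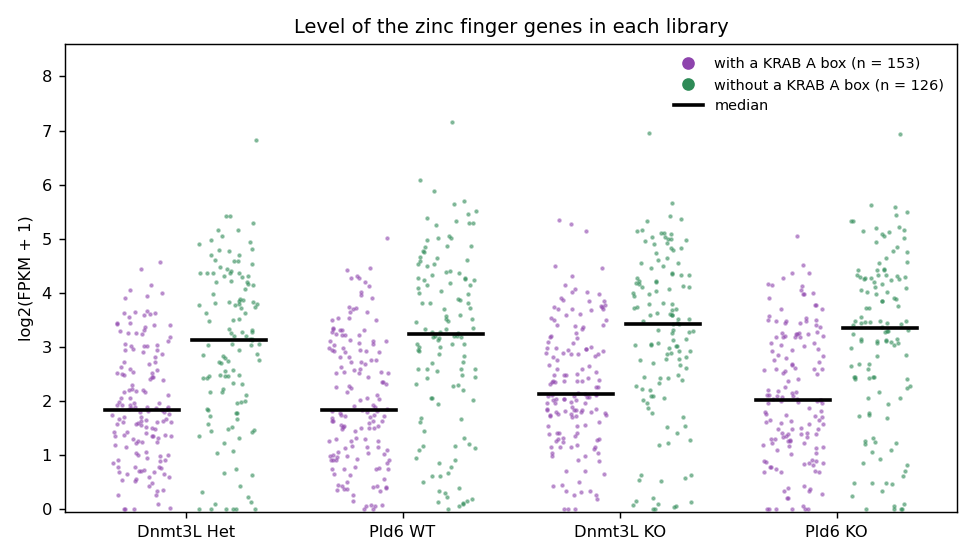
Level of each zinc finger gene as log2(FPKM + 1) in the 4 libraries, with 1 point per gene and a bar at the median of each class (153 genes with and 126 without a KRAB A box). In every library the class without the box has the higher median and the most abundant gene.

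The controls were first compared with each other. A gene was counted when its FPKM + 1 differed by more than 2-fold. By this rule 14 genes (4.95%) were higher in Dnmt3L Het than in Pld6 WT, where 11.1% of all genes were, and 13 genes (4.59%) were lower, where 3.77% of all genes were. The 3 largest differences upward were in Zfp703 (7.24 FPKM in Dnmt3L Het and 0.926 in Pld6 WT), Zfp358 (5.62 and 0.724) and Zfp275 (13.3 and 2.85). Zfp703, a transcriptional corepressor, was at 13 FPKM in Dnmt3L KO and 4.29 in Pld6 KO. Zfp358 was at 6.56 and 0.807 FPKM in these mutants, and Zfp275 at 27.5 and 6.18. For these genes each library of the Dnmt3L line was above both libraries of the Pld6 line. The 3 largest differences downward were in Zfp292 (5.53 FPKM in Dnmt3L Het and 18.3 in Pld6 WT), a large protein first described as a factor of growth hormone transcription, Zfp397 (7.26 and 19.2) and the KRAB gene Zfp866 (2.10 and 6.57).

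Members that split by line were thus looked for. Both libraries of the Dnmt3L line were more than 2-fold above both of the Pld6 line in 6 genes (2.12%), Zfp189, Zfp251, Zfp358, Zfp579, Zfp697 and Zfp771, against 4.50% of all genes. Zfp771 was at 18.9 FPKM in Dnmt3L Het and 17.4 in Dnmt3L KO, and at 7.31 in Pld6 WT and 7.52 in Pld6 KO. Zfp579 was at 5.96 and 11.4 FPKM in the Dnmt3L line, and at 1.25 and 2.3 in the Pld6 line. The reverse split was found in 0 members and in 0.346% of all genes. The Sertoli cell markers split in the same direction (5793 and 8057 FPKM in the Dnmt3L line, 183 and 474 in the Pld6 line), and their part in these values was not tested.

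In Pld6 KO the family was close to its level in the controls. Calls required a value of FPKM + 1 that was over 2-fold away from each control, in the same direction. By this rule only Zfp566 was higher (0.353% of the members, against 1.04% of all genes), and only Zfp474 was lower (0.353%, against 5.41% of all genes). These counts rested on the controls and the pseudocount. Without Pld6 WT 25 members were higher and 11 lower, beside 1330 and 3209 of all 23980 genes. Without Dnmt3L Het 4 members were higher and 1 lower, beside 1124 and 1548 of all genes. With a pseudocount of 0.1, 4 members were higher and 9 lower, and no count over all genes at that setting is given to set beside them. Above both controls by any amount were 117 members (41.3%, against 26.4% of all genes), and below both were 61 (21.6%, against 27.5%). Among genes with a mean of at least 5 FPKM, 39.0% of the members and 28.0% of all genes were above both. The median change, as log2 of FPKM + 1 over that of the mean of the controls, was 0.06, and over all genes it was 0. The median difference between the controls was -0.15 (Dnmt3L Het against Pld6 WT, log2), larger in size than this change.

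Zfp566, a KRAB gene on chromosome 7 with 7 fingers, was at 5.46 FPKM in Dnmt3L Het, 8.29 in Pld6 WT, 6.37 in Dnmt3L KO and 18.4 in Pld6 KO. The Pld6 KO library, with 867 fragments, was the single high library, and the other 3 were close together. Its level was 2.21-fold that of Pld6 WT (95% counting interval 1.98 to 2.48, which covers counting error only and not the spread between animals). The log2 change was 1.30. In edgeR's quasi-likelihood test the adjusted p was 0.846.

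Zfp474, a testis-expressed gene whose protein held no C2H2 finger by the pattern used, was the clearest loss in both mutants. It was at 6.25 FPKM (701 fragments) in Dnmt3L Het, 4.45 FPKM (313 fragments) in Pld6 WT, 0.0366 FPKM (3 fragments) in Dnmt3L KO and no fragment in Pld6 KO. Both controls were high and both mutants were at or near 0. With the floor of 3 fragments, Zfp474 was at least 81.2-fold lower in Pld6 KO than in Pld6 WT. In Dnmt3L KO it was 121-fold lower than in Pld6 WT (95% counting interval 41.2 to 592). Its edgeR adjusted p was 0.102 in each mutant, the smallest of the 278 members tested in either comparison. The 10 spermatid markers were lower in the mutants too (11.4 and 30.2 FPKM against 159 and 7069), with 9 of 10 past 2-fold in Pld6 KO, and with 8 of 10 in Dnmt3L KO. The 10 pachytene markers were lower likewise (90.0 and 77.3 against 625 and 1065 FPKM, with 8 past 2-fold in each mutant), and the part of these cells in the value of Zfp474 was not tested.

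In Dnmt3L KO more members were higher. Counted against the same 2 controls, 10 members were more than 2-fold above both (3.53%, against 2.14% of all genes) and 2 were below both (0.707%, against 5.78%). Without Dnmt3L Het as a control 38 members were higher and 8 lower, beside 2891 and 2099 of all 23980 genes. Without Pld6 WT 15 members were higher and 4 lower, beside 719 and 1970 of all genes. With a pseudocount of 0.1 the counts of members were 20 and 5, again with no count over all genes to set beside them. Above both controls by any amount were 133 members (47.0%, against 29.1% of all genes), and below both were 53 (18.7%, against 28.6%). At a mean of at least 5 FPKM, 42.6% of the members and 34.3% of all genes were above both. The median change was 0.17 (log2), against 0 over all genes. It was 0.03 when only Pld6 WT served as the control and 0.32 with only Dnmt3L Het, so that its size rested on the control chosen.

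The largest rise was in Zfp704. It was at 1.56 FPKM in Dnmt3L Het, 1.5 in Pld6 WT, 8.76 in Dnmt3L KO and 3.52 in Pld6 KO. The controls were nearly equal, Dnmt3L KO was highest, and Pld6 KO was also above both controls. Its level in Dnmt3L KO was 5.6-fold that of Dnmt3L Het (95% counting interval 5.28 to 5.94), with a log2 change of 1.95 and an edgeR adjusted p of 0.194.

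Zfp395, a relative of Zfp704 known to bind the promoter of the Huntington disease gene, was at 13.7 FPKM in Dnmt3L Het, 3.99 in Pld6 WT, 30.4 in Dnmt3L KO and 7.89 in Pld6 KO. Dnmt3L KO was again highest, but here the controls themselves differed 3.43-fold. Against the nearer control, Dnmt3L Het, its level was 2.22-fold higher (95% counting interval 2.13 to 2.32).

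Zfp641, which kept 5 of the 8 KRAB positions, was at 0.599 FPKM in Dnmt3L Het, 0.170 in Pld6 WT, 3.68 in Dnmt3L KO and 1.14 in Pld6 KO. Both mutants were above both controls, and Dnmt3L KO was 6.14-fold above Dnmt3L Het (95% counting interval 5.09 to 7.45). The log2 change was 1.76, which understates the change of a gene at this low level because of the pseudocount of 1, and the edgeR adjusted p was 0.347.

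Zfp536, a repressor of neuronal differentiation, was at 1.47 FPKM in Dnmt3L Het, 0.268 in Pld6 WT, 4.46 in Dnmt3L KO and 0.405 in Pld6 KO. Both libraries of the Dnmt3L line were above both of the Pld6 line, and Dnmt3L KO was 3.02-fold above Dnmt3L Het (95% counting interval 2.69 to 3.41). Zfp536 and Zfp395 had the library order of the Sertoli cell markers, with Dnmt3L KO (8057 FPKM) above Dnmt3L Het (5793), Pld6 KO (474) and Pld6 WT (183), and the part of these cells in the values was not tested. Zfp106, an RNA-binding protein needed by motor neurons and muscle, was steady in 3 libraries (12.8 FPKM in Dnmt3L Het, 13.1 in Pld6 WT and 13.8 in Pld6 KO) and at 30.0 FPKM in Dnmt3L KO. The rise over Pld6 WT, the nearer control, was 2.29-fold (95% counting interval 2.21 to 2.37). Zfp536 and Zfp106 were the members past 2-fold upward in Dnmt3L KO among the 36 measured genes of a list with roles outside KRAB silencing. Zfp474 alone was past it downward. Of all genes 2.14% were past 2-fold upward and 5.78% downward in Dnmt3L KO.

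Of the KRAB genes, 4 were more than 2-fold above both controls in Dnmt3L KO (2.61%). The share was 3.97% in the genes without the box and 2.14% in all genes. Zfp825 was at 8.61 FPKM in Dnmt3L Het, 5.59 in Pld6 WT, 21.1 in Dnmt3L KO and 8.12 in Pld6 KO, 2.45-fold above the nearer control. Zfp182, on the X chromosome, was at 0.929, 0.868, 3.76 and 1.38 FPKM in the same order, 4.05-fold above the nearer control (95% counting interval 3.58 to 4.59). Zfp945 was at 2.82, 1.47, 6.67 and 1.99 FPKM, and Zfp799 at 0.819, 0.680, 2.89 and 0.843 FPKM. In each of these genes Dnmt3L KO was the single high library. Zfp939, which had no coding sequence to search, behaved likewise at 1.48, 1.55, 5.69 and 1.95 FPKM. Of the KRAB genes here, Zfp825 and Zfp945 also had the library order of the Sertoli cell markers. The part of these cells in their values was not tested.

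Zfp672, with 13 fingers and no KRAB A box, was the other gene that was lower in Dnmt3L KO. It was at 41.7 FPKM in Dnmt3L Het, 66.7 in Pld6 WT, 19.2 in Dnmt3L KO and 48.2 in Pld6 KO. Pld6 KO lay between the controls, whereas Dnmt3L KO was 2.18-fold below Dnmt3L Het (95% counting interval 2.04 to 2.33). The log2 change was -1.45 and the edgeR adjusted p was 0.637.

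**Figure D2:**
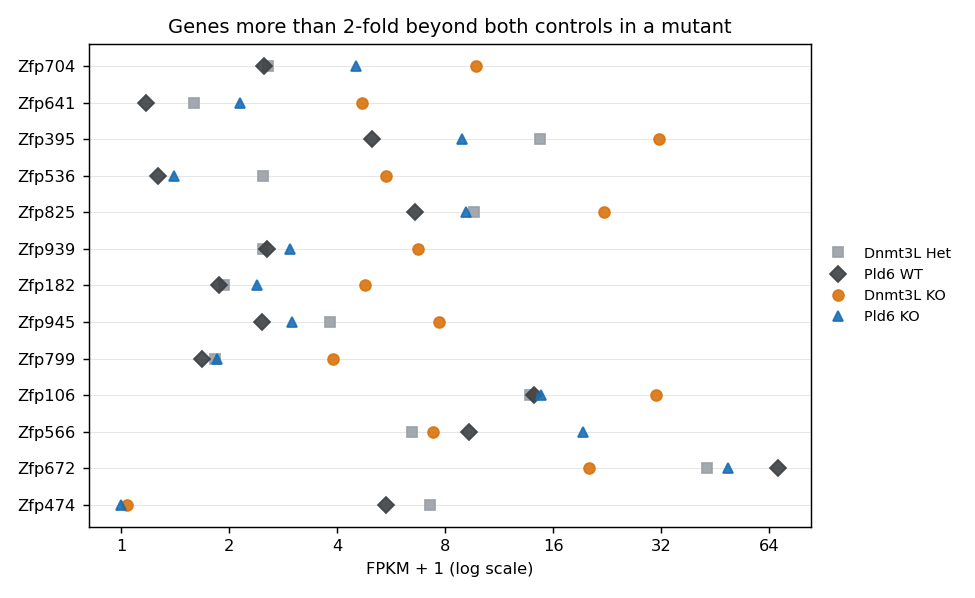
FPKM + 1 on a log scale of the 13 zinc finger genes that lay more than 2-fold beyond both controls in Pld6 KO or Dnmt3L KO, with 1 symbol per library and no error bars because each genotype had 1 library. Dnmt3L KO is the highest library for 10 genes, Pld6 KO for Zfp566, and both mutants are at or near 0 FPKM for Zfp474.

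The quasi-likelihood test of edgeR, the model that takes the controls as replicates, was fitted to the fragments of all 18657 genes that passed its filter, with 1 residual degree of freedom from the controls. At an adjusted p under 0.05 it called 0 of 278 members in either mutant, and 0.00% of all genes. At an unadjusted p under 0.05 it gave 0 members higher (against 0.547% of all genes) and 4 lower in Pld6 KO (Zfp300, Zfp459, Zfp474 and Zfp572, 1.44% of the members against 7.41% of all genes). In Dnmt3L KO it gave 4 higher (Zfp182, Zfp456, Zfp641 and Zfp704, 1.44% against 1.09%) and 2 lower (Zfp474 and Zfp572, 0.719% against 7.72%). In DESeq2 the log2 change in Pld6 KO was -10.6 for Zfp474 and -8.23 for Zfp300. In Dnmt3L KO it was -7.19 for Zfp474 and 2.52 for Zfp704. Zfp572 was represented by 75 fragments in Dnmt3L Het, 28 in Pld6 WT and 0 in both mutants, and was at least 7.27-fold lower in Pld6 KO and at least 10.9-fold lower in Dnmt3L KO than in Pld6 WT. Zfp300 had 207 fragments in Dnmt3L Het, 11 in Pld6 WT, 258 in Dnmt3L KO and 0 in Pld6 KO, so that the 2 libraries of the Pld6 line were the low ones.

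The upward shift in Dnmt3L KO was larger in the KRAB genes. Above both controls lay 89 of the 153 KRAB genes (58.2%) and 43 of the 126 others (34.1%), beside 29.1% of all genes, and below both lay 12.4% and 25.4%. Past 2-fold above both controls the order was reversed, with 2.61% of the KRAB genes and 3.97% of the others, beside 2.14% of all genes. The median log2 change was 0.27 in the KRAB genes and 0.03 in the others. With Pld6 WT as the only control the medians were 0.23 and -0.08, and with Dnmt3L Het as the only control 0.36 and 0.24, so that the KRAB genes had the higher median against either control. The classes differ in level, and both parts of a split at a mean of 5 FPKM were therefore examined. Among genes at or above this level, 53.6% of 56 KRAB genes and 35.3% of 85 others were above both controls, beside 34.3% of all genes at that level. Among genes under it the shares were 60.8% of 97 and 31.7% of 41, beside 24.9% of all genes. In Pld6 KO the classes lay closer, with medians of 0.12 and 0.02 and with 46.4% and 35.7% above both controls, beside 26.4% of all genes. The summed FPKM of the 153 KRAB genes was 629 in Dnmt3L Het, 724 in Pld6 WT, 883 in Dnmt3L KO and 778 in Pld6 KO, highest in Dnmt3L KO. That of the other 126 was 1463, 1775, 1706 and 1682 FPKM, with both mutants between the controls. Cell markers moved in Dnmt3L KO as well. The 10 L/Z markers summed to 840 FPKM, against 1390 in Dnmt3L Het and 2239 in Pld6 WT, with a median log2 change of -1.15. The median was 1.41 for the 10 Sertoli cell markers, 1.12 for 6 macrophage markers and 0.89 for 6 Leydig cell markers. It was -0.39 for 7 peritubular and vascular markers and -0.20 for 10 spermatogonia markers. The largest falls were in the 10 spermatid markers (-4.90) and the 10 pachytene markers (-3.26). Against Dnmt3L Het alone the medians were -0.54 (L/Z), 0.50 (Sertoli), 0.85 (macrophage), -0.02 (Leydig), -0.61 (peritubular and vascular) and 0.25 (spermatogonia). For the spermatid and pachytene markers they were -5.65 and -3.48. The part of these cells in the shift was not tested. The mutants share both controls, so the shifts are not independent of each other.

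**Figure D3:**
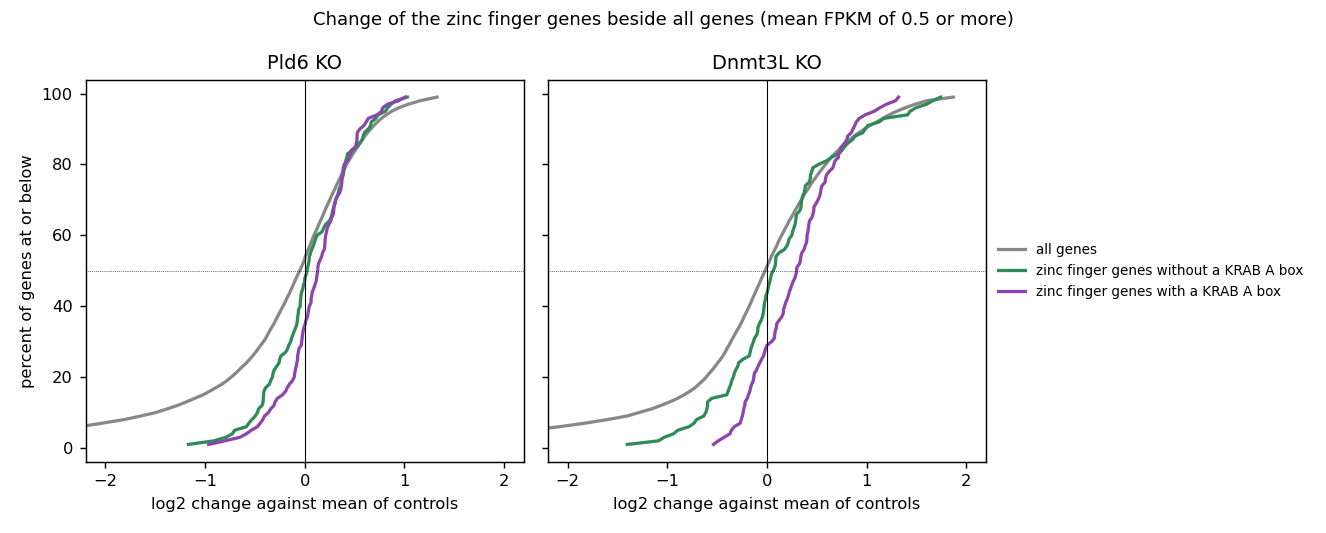
Percent of genes at or below each log2 change against the mean of the controls in Pld6 KO and Dnmt3L KO, for genes with a mean of at least 0.5 FPKM, with 1 line each for all genes and for the zinc finger genes with and without a KRAB A box. In Dnmt3L KO the line of the KRAB genes crosses 50% at 0.30, the others at 0.06 and all genes at -0.02, and both zinc finger classes lack the long lower tail of all genes.

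Each knockout was next set against the control of its own line, a pair of contrasts that share no library. In the Pld6 line 4 members were more than 2-fold higher (1.41%, against 4.69% of all genes) and 1 lower (0.353%, against 6.46%). The higher ones were Zfp703, Zfp566, Zfp931 and Zfp429, of which Zfp703, Zfp931 and Zfp429 were lower in Pld6 WT than in any other library. Zfp931, a KRAB gene, was at 1.68 FPKM in Dnmt3L Het, 0.701 in Pld6 WT, 3.76 in Dnmt3L KO and 2.50 in Pld6 KO. After Zfp474, the largest falls in this line were in Zfp956 (12.1 FPKM in Pld6 WT and 6.10 in Pld6 KO) and Zfp318 (58.3 and 31.5 FPKM), a gene strongly expressed in testis. Neither passed 2-fold. In Dnmt3L Het and Dnmt3L KO, Zfp956 was at 13.2 and 6.33 FPKM and Zfp318 at 26.4 and 22.3.

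In the Dnmt3L line 15 members were more than 2-fold higher (5.30%, against 3.00% of all genes) and 4 lower (1.41%, against 8.22%). Higher by any amount were 211 members (74.6%, against 43.0% of all genes) in the Dnmt3L line and lower 69 (24.4%, against 38.1%). In the Pld6 line 157 were higher (55.5%, against 40.1%) and 123 lower (43.5%, against 43.9%). The shares of all genes include genes at 0 in both libraries, which are neither. Among genes with a mean of at least 5 FPKM, 75.2% of the members and 54.3% of all genes were higher in the Dnmt3L line, and 52.5% and 47.9% in the Pld6 line. The 15 included the 10 genes above and also Zfp292, Zfp445, Zfp462, Zfp871 and Zfp882. Zfp462, a chromatin regulator of stem cells with 33 fingers by pattern, was at 3.48 FPKM in Dnmt3L Het, 4.55 in Pld6 WT, 8.72 in Dnmt3L KO and 6.88 in Pld6 KO, above both controls in both mutants. The lower ones were Zfp474, Zfp572, Zfp672 and Zfp819. Over the 260 members with a mean of at least 0.5 FPKM, the differences of the 2 lines correlated with Pearson's r 0.57 and Spearman's rho 0.47. Over all 15722 such genes r was 0.57 and rho 0.49, and 66.5% of the members and 67.0% of all genes had the same sign. The members were not set apart from other genes in this respect, and genes are not independent replicates.

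**Figure D4:**
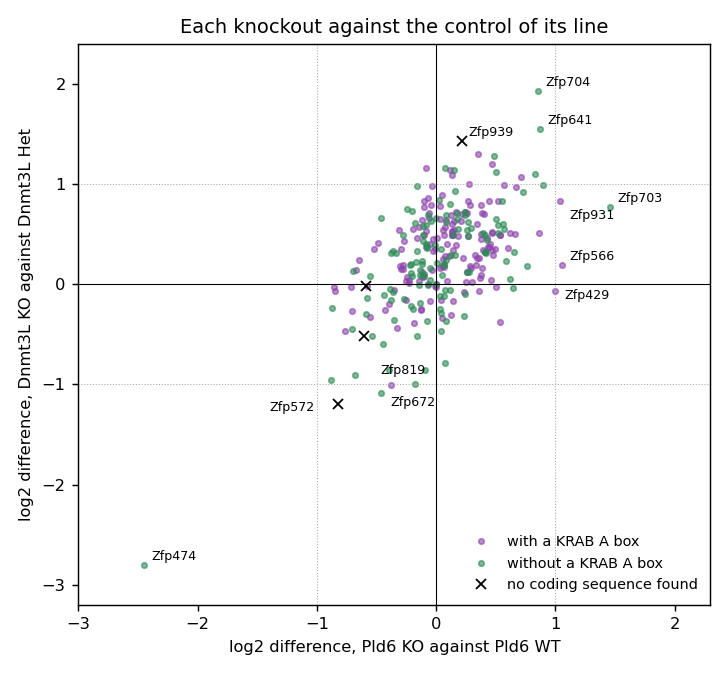
Log2 difference of each zinc finger gene between Pld6 KO and Pld6 WT (horizontal) and between Dnmt3L KO and Dnmt3L Het (vertical), both on FPKM + 1, with 1 point per gene and dotted lines at 2-fold. Most genes lie above the horizontal zero line, where 211 of 283 are higher in Dnmt3L KO, and Zfp474 stands alone at the lower left.

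The KRAB proteins with a known target were examined as a list, of which 8 of 9 genes were measured. In all, 0 of the 8 were more than 2-fold beyond both controls in either mutant, and their median log2 change was 0.13 (Pld6 KO) and 0.30 (Dnmt3L KO). Zfp445, which keeps methylation at imprinted loci, was at 14.9 FPKM in Dnmt3L Het, 21 in Pld6 WT, 34.5 in Dnmt3L KO and 19.8 in Pld6 KO. Dnmt3L KO was the highest library, 2.32-fold above Dnmt3L Het but less than 2-fold above Pld6 WT. Zfp932, a repressor of endogenous retroviruses, was at 20.7, 10.7, 37.7 and 15.7 FPKM in the same order, also highest in Dnmt3L KO and with unlike controls. Zfp932, and Zfp809 described below, had the library order of the Sertoli cell markers too, and the part of these cells was not tested.

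Zfp809, which recognises the primer binding site of murine leukaemia viruses, was at 11.4 FPKM in Dnmt3L Het, 6.04 in Pld6 WT, 12 in Dnmt3L KO and 8.06 in Pld6 KO. Zfp568, the repressor of a placental Igf2 transcript, was at 3.49, 7.32, 6.30 and 8.68 FPKM, and Zfp708, a binder of retrotransposon sequence, at 3.13, 2.59, 3.20 and 3.28 FPKM. In these 3 genes each mutant lay between the controls or close to the nearer of them. Zfp600 (1.86, 3.51, 3.06 and 6.13 FPKM) was highest in Pld6 KO. Zfp819 (2.72, 2.02, 0.859 and 1.33 FPKM) was lower in both mutants than in both controls, and Zfp429 (2.57, 0.335, 2.4 and 1.67 FPKM) was low in Pld6 WT alone. The fragments of Zfp708 and Zfp809 were not whole numbers in at least 1 library, which marks reads shared with similar sequences, and their values are uncertain to that extent.

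The partners of the KRAB proteins were abundant. Trim28 was at 141 FPKM in Dnmt3L Het, 186 in Pld6 WT, 149 in Dnmt3L KO and 208 in Pld6 KO, and Setdb1 at 47.5, 105, 55.7 and 96.3 FPKM. Setdb1 was thus about equal within each line and differed between the lines. Of the 18 genes of TRIM28 silencing, H3K9 methylation and maintenance methylation that were listed, 0 were more than 2-fold beyond both controls in either direction in either mutant. Their median log2 change was 0.17 (Pld6 KO) and -0.07 (Dnmt3L KO).

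Zinc finger genes lie in clusters that arose by tandem duplication. By position 70 members were on chromosome 7, 29 on chromosome 17 and 27 on chromosome 13, and 12 runs of at least 5 members, with neighbouring starts within 500 kb, held 107 members, 80 of them KRAB genes. In Dnmt3L KO the run medians differed, and the counts below stand beside 47.0% of the members and 29.1% of all genes above both controls. On chromosome 17, 8 of 10 members of the run at chr17:32765496-33631716, which includes Zfp799 and Zfp871, were above both controls, with a median log2 change of 0.44. In the run at chr17:21008941-22867309, made of 13 KRAB genes and including Zfp945, 8 were above both controls, with a median of 0.43. On chromosome 7, 6 of 7 members of the run at chr7:12412549-12985717 were above both controls, with a median of 0.59.

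The other 9 runs had lower medians. The next were 0.34 in run 8 on chromosome 7, which holds Zfp566 and Zfp568, with 5 of its 9 members above both controls and 0 below, and 0.21 in run 12 on chromosome 9, which holds Zfp809. The largest run, of 15 KRAB genes at chr13:67038594-67827000, had a median of 0.12 and 7 members above both controls. Runs 7 and 10 on chromosome 7 had medians of 0.07 and 0.09, and the medians of runs 4, 5, 9 and 11, on chromosomes 6, 7, 7 and 8, went from -0.13 to -0.08. The runs with high medians in Dnmt3L KO had medians of 0.10 (the run with Zfp799), -0.03 (the run with Zfp945) and -0.15 (chromosome 7) in Pld6 KO. Over the 12 runs the medians in Pld6 KO went from -0.30 to 0.37. Members of a run are close relatives and neighbours, and they are not independent.

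**Figure D5:**
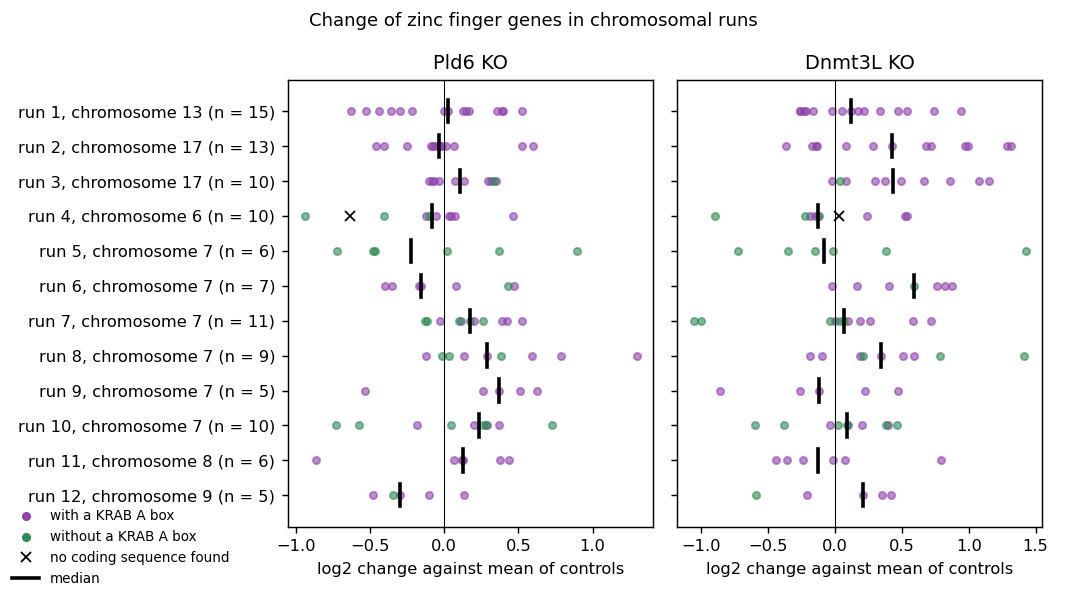
Log2 change against the mean of the controls for the members of the 12 chromosomal runs in Pld6 KO and Dnmt3L KO, with 1 point per gene and a bar at the median of the run. In Dnmt3L KO the medians of runs 2, 3 and 6 are 0.43, 0.44 and 0.59, and that of run 1, the largest, is 0.12.

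Finally, the 6 members on the X chromosome were examined, since X-linked genes are silenced later in male meiosis. In Dnmt3L KO 5 of the 6 were above both controls, with a median log2 change of 1.0, and in Pld6 KO the median was -0.33. Zfp711, a DNA-binding protein that recruits a histone demethylase, was at 19.6 FPKM in Dnmt3L Het, 17.7 in Pld6 WT, 33.6 in Dnmt3L KO and 14.8 in Pld6 KO. Zfp449 was at 2.92, 1.29, 6.02 and 1.33 FPKM, and Zfp185 at 4.53, 8.75, 7.09 and 13.5 FPKM, highest in Pld6 KO. With Zfp182, Zfp275 and Zfp300, described above, Dnmt3L KO was the highest library for 5 of the 6. Over all 651 X-linked genes with a mean of at least 0.5 FPKM the median change in Dnmt3L KO was 0.25 and 46.7% were above both controls, against -0.02 and 35.4% of 13983 autosomal genes. With the same filter 5 members on X remained, with a median of 1.18 and 80% above both controls. In Pld6 KO the median was -0.31 for these 5 members, -0.16 for the X-linked genes and -0.04 for the autosomal genes. Sertoli cells, whose markers were highest in Dnmt3L KO, do not pass through meiosis, and their part in these values was not tested.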

How the data were processed

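PolyA(+) RNA of FACS-sorted L/Z spermatocytes had been sequenced with a stranded kit in reads of 50 bp, 1 library per genotype. Per the labels, the authors used TopHat and Cuffdiff on mm10, in versions not given in the sources used here. The deposited table gives for each gene an estimated count of fragments before scaling and an FPKM value, which the authors' tool scaled to gene length and depth. Non-whole estimated counts in the deposited table concerned 9 members (3.18%), against 4.85% of all genes. The FPKM of Zfp281 in Dnmt3L Het, which the tool marked as failed, was kept. Reads were aligned to the C57BL/6J genome, and what this did to reads of the MSM/Ms allele was not tested.

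From these values, log2 changes were computed on FPKM + 1 against the mean of the controls, and calls were made at more than 2-fold beyond both controls. For edgeR 4.0.16 (quasi-likelihood, TMM, filterByExpr, Benjamini-Hochberg over all genes) and DESeq2 1.42.0 the counts were rounded, and 4 libraries entered in 3 groups. The edgeR script was also run on simulated data, an outcome not given here. Its fit to these libraries had 1 residual degree of freedom and a biological coefficient of variation (relative spread within a group) of 0.589. Its power was therefore low, and a gene without a call is not thereby unchanged. Where nothing says that libraries came from separate animals, p-values measure the spread between the control libraries alone. Counting intervals (exact, 95%) cover counting error only, since reads carried no molecular identifiers.

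Named genes were those past 2-fold (the 5 largest in each direction with at least 10 fragments), the 8 highest in mean FPKM, the 3 largest differences in each direction between the controls and within each line, listed silencers, and listed regulators past 2-fold. Others that the counts, runs and chromosomes led to were named after their values were seen. The members and lists were chosen with earlier results of these data known. Gene positions came from RefSeq genes (GRCm38.p6) and coding sequences from GENCODE M21. The alternatives were a pseudocount of 0.1, a filter at a mean FPKM of 0.5, a 3-fold limit, TMM-scaled counts, each control left out, and for edgeR another scaling, no filter and DESeq2.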

Additional observations from a re-analysis of the deposited data

How the results depend on the processing

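The filter at a mean of 0.5 FPKM left every count of members past 2-fold unchanged. At the other settings most of these counts moved, while the medians moved less. For the pseudocount of 0.1, the 3-fold limit and the TMM scale, no count over all genes is given here. Those counts of members therefore cannot show whether members moved more often than other genes. With a pseudocount of 0.1 FPKM, Pld6 KO had 4 members higher and 9 lower, and Dnmt3L KO had 20 higher and 5 lower. Between the controls 30 were then higher and 28 lower in Dnmt3L Het, in the Pld6 line 14 and 10, and in the Dnmt3L line 38 and 9. With a 3-fold limit, Pld6 KO had 0 higher, and Dnmt3L KO had 1 higher and 1 lower. It left 4 higher and 0 lower between the controls, 0 higher in the Pld6 line, and 1 higher and 1 lower in the Dnmt3L line. On TMM-scaled counts, Pld6 KO had 2 higher and 7 lower and Dnmt3L KO 16 higher, and 23 were lower in Dnmt3L Het than in Pld6 WT. The Pld6 line then had 7 higher and 8 lower, and the Dnmt3L line 30 and 7. On that scale the median of all genes with a mean of at least 0.5 FPKM lay at -0.09 (Pld6 KO) and -0.03 (Dnmt3L KO). On FPKM the median of the same genes was -0.05 and -0.02. The cause was not tested.

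With 1 control left out, Pld6 KO had 4 members higher without control replicate 1 (Dnmt3L Het) and 25 without control replicate 2 (Pld6 WT), and from 1 to 11 lower. Dnmt3L KO had 38 higher without replicate 1 and 15 without replicate 2, and from 4 to 8 lower, and its median went from 0.032 to 0.32. The counts over all genes at these settings are given above with each mutant. The median of the genes without a KRAB A box went from 0.0023 to 0.16 in Pld6 KO and from -0.078 to 0.24 in Dnmt3L KO, below that of the KRAB genes each time (0.09 to 0.20 and 0.23 to 0.36). On TMM-scaled counts it turned to -0.0097 in Pld6 KO. The settings for the KRAB classes and the split by level were chosen after seeing the data.

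With no filter, edgeR called 1 of 281 members (Zfp474) and 437 of 20568 genes for Pld6 KO. For Dnmt3L KO it called the same member and 429 genes. DESeq2 called 2 of 278 members and 964 of 18591 genes for Pld6 KO. For Dnmt3L KO its calls were 2 of 275 members and 942 of 17405 genes. Each of these fits thus called members less often than genes as a whole. The adjusted p of Zfp474 ranged from 1.79e-04 to 0.126 in Pld6 KO and from 4.94e-06 to 0.124 in Dnmt3L KO. No paired analysis was possible because the groups compared share fewer than 2 replicate numbers, and those numbers only name the libraries. Members at low counts, among them the 11 at 0 in Pld6 KO, the shallowest library, are limited by depth.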

Other observations

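The number of CG pairs in the promoter and the change in a mutant were weakly related across the 232 members with a promoter. Spearman's rho was -0.15 (Pld6 KO) and -0.22 (Dnmt3L KO), and within the KRAB genes, which have fewer CG pairs, it was -0.15 and -0.12. The number of fingers was related to the change with a rho of 0.14 (Pld6 KO) and 0.10 (Dnmt3L KO) over 279 members. These are descriptions across genes of 1 library each, and the mutants share both controls.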
